A study of Rattus norvegicus with 24 samples.

Results

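The genes described here are 10 that are known from fat cells: Adipoq, Retn, Cfd, Rbp4, Plin1, Cidec, Aqp7, Fabp4, Pck1 and Car3. They were chosen by gene symbol in the deposited table, out of 20024 named genes on the array. Each had 1 probe, printed as 2 spots. A feature entered the fit when 8 or more of the 24 arrays showed it well above background, which all 10 genes did, among 20327 features and 15872 named genes.

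Expression was measured in the mid-belly of the soleus, a slow postural muscle of the hindlimb, in female rats of about 14 weeks, on 24 one-colour Agilent arrays, each for a single rat. The 3 groups had 8 rats each. Sedentary rats (SED) had ordinary cage activity for 8 weeks. Trained rats (TR) had a running wheel for 8 weeks, used at will, and detrained rats (DETR) had one for 4 weeks and then none for 4 weeks. All of the groups shared a bout of forced wheel running for 1 h at 20 m/min, with the muscle taken 24 h later, so that no group was at rest. The question posed is how running habits before that bout, including a stop to them, bear on expression after it.

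The arrays lay on 3 slides of 8, and slide and group were only partly crossed. The 8 SED arrays fell as 2, 4 and 2 on slides 1, 2 and 3, the DETR arrays as 6 on slide 1 and 2 on slide 3, and the TR arrays as 4 on slide 2 and 4 on slide 3. Slide 3 was dim: the 75th percentile of its spot signals was 95.5 to 339 per array, against 562 to 1493 on slides 1 and 2. Its arrays also carried scan number 2, against 1 on the other slides, and the cause of the dimness was not tested. Array TR 2 was the noisiest, with a median variation between replicate spots of 31.5% against 4.08% to 9.24% on the other arrays. Values below are log2 signals relative to the 75th percentile of the same array, so that 0 is that percentile. Different probes bind with different strength, so the level of one gene was not set against that of another.

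Fat cells lie between and around muscle fibres, and a piece of muscle carries a varying amount of them. White adipocytes store triglyceride in a single large droplet coated with perilipin, release fatty acids and glycerol from it, and secrete hormones, among them adiponectin, into the blood. Several genes named for fat are also made elsewhere: fatty acid binding protein 4 is made by capillary endothelium and macrophages, and carbonic anhydrase 3 is an abundant cytosolic enzyme of slow muscle fibres as well as of fat. In pieces of whole muscle, fewer cells of a type and less RNA per cell cannot be told apart.

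Of the other 9 genes, Retn, Rbp4 and Cfd had the highest correlations with Adipoq between arrays, as described further on, and the 300 bases from 250 before to 50 after the starts of these 4 genes are shown for that reason. They come from RefSeq on build GRCr8, run 5′ to 3′ along the gene, and were read from the table by symbol, which matched 7 of the 10 genes (Adipoq, Plin1, Cfd, Pck1, Retn, Cidec and Rbp4). Capitals mark matches, on either strand, to 3 short motifs: AGGTCA, the core site of nuclear receptors such as PPAR gamma and its partner RXR; TTGCNNAA, a site of the C/EBP type; and CCAAT. Their places are chr11:91240120-91240419 on the minus strand for Adipoq, chr12:6508524-6508823 on the plus strand for Retn, chr1:245313502-245313801 on the minus strand for Rbp4 and chr7:10465447-10465746 on the minus strand for Cfd.
Adipoq: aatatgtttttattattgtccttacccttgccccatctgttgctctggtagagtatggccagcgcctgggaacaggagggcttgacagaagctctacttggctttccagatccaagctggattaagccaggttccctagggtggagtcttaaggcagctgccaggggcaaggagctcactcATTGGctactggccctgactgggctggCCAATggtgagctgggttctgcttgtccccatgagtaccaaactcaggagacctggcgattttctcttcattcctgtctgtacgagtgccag
Retn: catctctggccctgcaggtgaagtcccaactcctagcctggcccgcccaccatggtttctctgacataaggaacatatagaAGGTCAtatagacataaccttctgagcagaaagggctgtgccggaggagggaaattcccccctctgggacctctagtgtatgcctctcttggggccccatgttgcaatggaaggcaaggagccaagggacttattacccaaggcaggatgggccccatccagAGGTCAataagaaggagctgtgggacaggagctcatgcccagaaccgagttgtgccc
Rbp4: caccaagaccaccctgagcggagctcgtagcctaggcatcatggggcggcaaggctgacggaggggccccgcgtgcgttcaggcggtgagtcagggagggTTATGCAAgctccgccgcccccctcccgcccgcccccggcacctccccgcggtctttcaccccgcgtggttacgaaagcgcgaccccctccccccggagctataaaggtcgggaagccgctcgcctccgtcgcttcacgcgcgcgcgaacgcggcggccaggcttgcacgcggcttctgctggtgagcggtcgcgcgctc
Cfd: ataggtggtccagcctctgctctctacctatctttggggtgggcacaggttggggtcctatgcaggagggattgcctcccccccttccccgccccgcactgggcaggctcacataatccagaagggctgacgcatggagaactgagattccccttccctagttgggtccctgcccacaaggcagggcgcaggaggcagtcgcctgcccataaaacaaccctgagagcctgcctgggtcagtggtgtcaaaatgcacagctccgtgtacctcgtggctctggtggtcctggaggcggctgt

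The capitals differ among these promoters. Adipoq held CCAAT on its own strand, starting 42 bases before the start, and on the other strand 69 bases before it. Retn held AGGTCA on its own strand 169 and 7 bases before the start, Rbp4 held TTGCNNAA on the other strand 150 bases before it, and the Cfd window held none of the letters searched. Among all 7 windows, AGGTCA was in 2 (Pck1 and Retn), TTGCNNAA in 3 (Plin1, Cidec and Rbp4) and CCAAT in 2 (Adipoq and Plin1). Of all 33469 promoter windows in the table, 16.2% held AGGTCA, 10.6% held TTGCNNAA and 37.5% held CCAAT. The direct repeat AGGTCANAGGTCA, which holds the core site at both ends and is the form that PPAR gamma and RXR bind together, was in 0 of the 7 windows and in 0.0538% of all windows. No motif was shared by all 4 of the printed promoters. A match is only a match of letters in this window.

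Adipoq encodes adiponectin, a hormone that fat cells secrete in large amounts. Its log2 level ran from -3.76 to -1.29 in SED (median -2.42), from -4.21 to -0.89 in DETR (median -2.08) and from -3.19 to -0.85 in TR (median -2.09). It was well above background on 21 of 24 arrays (7 SED, 8 DETR and 6 TR), and the 3 others were on slide 3. The groups overlapped over most of their range, and within each slide at least 1 group spanned more than 1 log2 unit. Over all arrays the range was 10.3-fold, from DETR 7 to TR 2.

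Retn encodes resistin, a small protein that rodent adipocytes secrete. It was well above background on all 24 arrays, with levels from -2.35 to -0.44 in SED (median -1.80), from -2.05 to -0.36 in DETR (median -1.27) and from -1.62 to -0.24 in TR (median -0.76). In SED, 6 arrays lay between -2.35 and -1.36, and SED 2 and SED 3 lay above them. TR had no array below -1.62, while 5 of the 8 SED arrays lay below that level.

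Cfd encodes complement factor D, also called adipsin, a serine protease of the alternative complement pathway that fat cells secrete. Levels ran from 0.98 to 2.15 in SED (median 1.59), from 0.22 to 2.10 in DETR (median 1.64) and from 0.90 to 3.02 in TR (median 2.05), on all 24 arrays well above background. The lowest arrays of each group (SED 7, DETR 8 and TR 5) were on slide 3, and the highest of all was TR 2.

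Rbp4 encodes the carrier of retinol in blood, made mostly by liver and also by fat. It ran from -3.87 to -1.21 in SED (median -1.91), from -3.84 to -0.41 in DETR (median -1.76) and from -2.72 to -0.85 in TR (median -1.82), and was well above background on 22 of 24 arrays. The 3 medians lay within 0.2 of each other, and SED 8, DETR 7 and TR 7, all on slide 3, were the lowest arrays of their groups.

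Plin1, which encodes the coat protein of the adipocyte lipid droplet, was near the limit of the array. It was well above background on 13 of 24 arrays (5 SED, 5 DETR and 3 TR) and on none of slide 3. Levels ran from -6.10 to -4.92 in SED (median -5.39), from -6.31 to -4.69 in DETR (median -5.34) and from -5.92 to -3.72 in TR (median -5.18). Its highest value, in TR 8, was not well above background.

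Cidec, which encodes a protein that fuses lipid droplets into larger ones, was also dim, with 12 of 24 arrays well above background (3 SED, 5 DETR and 4 TR) and none on slide 3. Levels ran from -6.45 to -4.94 in SED (median -5.54), from -7.14 to -4.61 in DETR (median -5.34) and from -6.48 to -4.28 in TR (median -4.99). The groups overlapped, and the highest array was TR 2.

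Aqp7 encodes the channel through which glycerol leaves the fat cell, and it is also made by capillary endothelium. It was well above background on all 24 arrays, with levels from 0.36 to 1.87 in SED (median 1.47), from -0.17 to 1.51 in DETR (median 0.63) and from 0.58 to 1.64 in TR (median 0.81). SED held 5 arrays above 1.36 and DETR held 2. The values below 0 were both in DETR, in DETR 6 and DETR 8.

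Fabp4 encodes a carrier of fatty acids in the cytosol of fat cells, macrophages and endothelium. Levels ran from 0.88 to 2.40 in SED (median 1.80), from 1.03 to 2.20 in DETR (median 1.93) and from 0.31 to 2.65 in TR (median 1.60), on all 24 arrays well above background. Slide set it apart more than group did: the 8 arrays of slide 3 lay between 0.31 and 1.33, and the 16 arrays of the other slides between 1.46 and 2.65, with no overlap.

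Pck1 encodes the cytosolic form of phosphoenolpyruvate carboxykinase, which fat cells use to make glycerol 3-phosphate for storing fatty acids. It was well above background on only 13 of 24 arrays (3 SED, 5 DETR and 5 TR). Levels ran from -7.64 to -3.89 in SED (median -5.67), from -6.82 to -3.18 in DETR (median -5.85) and from -7.14 to -1.41 in TR (median -4.30). The values of TR 7 (-1.41) and TR 8 (-1.63), both on slide 3 and both well above background, stood above all others relative to the 75th percentile. Their signals before that scaling were 36.0 and 40.1, close to 32.7 in SED 1 and 29.3 in TR 4. The 75th percentiles were 95.5 in TR 7 and 124 in TR 8, against 1109 in SED 1 and 1438 in TR 4.

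Car3 encodes carbonic anhydrase 3, which hydrates carbon dioxide in the cytosol. It was well above background on all 24 arrays and lay far above the 75th percentile on each, from 5.58 to 6.37 in SED (median 5.77), from 5.87 to 6.38 in DETR (median 6.04) and from 5.24 to 5.93 in TR (median 5.59). Its range over all arrays was 2.19-fold, and the spread of its residuals was at the 10.5th percentile of all features, against the 93.9th for Adipoq. These percentiles were not matched for signal level, and Adipoq was well above background on only 21 of the 24 arrays. DETR and TR overlapped only between 5.87 and 5.93. On slide 1, the 2 SED arrays (5.75 and 5.84) lay below all 6 DETR arrays, and on slide 2 only TR 2, at 5.58, reached the lowest of the 4 SED arrays, SED 3, also at 5.58.

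**Figure D1:**
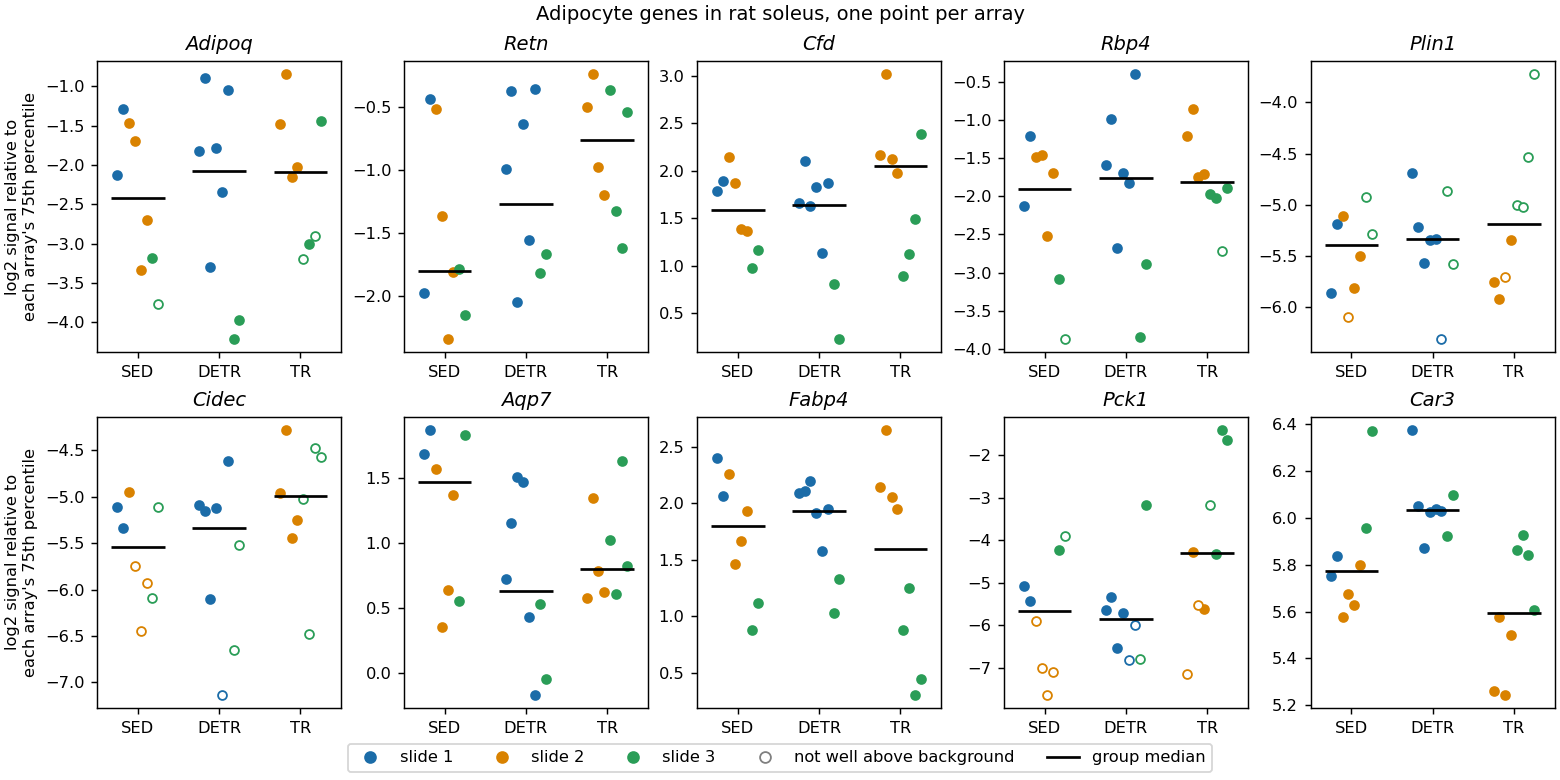
Log2 signal of the 10 genes relative to each array's 75th percentile (vertical axis, separate scale in each panel) in the SED, DETR and TR groups, with 1 point per array, coloured by slide, open where the signal was not well above background, and a bar at the group median. The groups overlap in every panel, the slide 3 arrays are low for Fabp4 (0.31 to 1.33), and TR 7 and TR 8 are the high points of Pck1.

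The first question was which of these genes varied together from rat to rat. Adipoq, Retn and Rbp4 were positively related to one another over the arrays and inside every slide. Cfd was positively related to Adipoq over the arrays and inside every slide. On slide 1, DETR 3 was the lowest array for Adipoq (-3.29), Retn (-2.05) and Rbp4 (-2.68), while DETR 2 and DETR 6 were the 2 highest for each. On slide 2, SED 5 was the lowest for Adipoq (-3.34), Retn (-2.35), Rbp4 (-2.52), Cidec (-6.45) and Pck1 (-7.64), and TR 2 was the highest for these 5 and for Cfd and Fabp4. Cidec and Pck1 were not well above background in SED 5, and TR 2 was the noisiest array.

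Adipoq and Rbp4 had a Pearson r of 0.90 and a Spearman rho of 0.90 over 24 arrays (permutation p = 1e-05 for both, the smallest that 100000 permutations can give, two-sided, adjusted by Benjamini-Hochberg over 45 pairs of genes to 0.00015 and 0.000225). Without the 2 arrays farthest from the median r was 0.88, and within slides 1, 2 and 3 it was 0.93, 0.94 and 0.73. Adipoq with Cfd gave r = 0.86 and rho = 0.86 (adjusted permutation p = 0.00015 and 0.000225), r = 0.81 without the 2 farthest arrays, and 0.63, 0.89 and 0.89 within the slides. For Adipoq with Retn, r was 0.77 and rho 0.78 (adjusted permutation p = 0.000337 and 0.000225), 0.78 without the 2 farthest, and 0.90, 0.94 and 0.66 within the slides. Retn with Rbp4 gave 0.77 and 0.78 (adjusted permutation p = 0.00015 and 0.000225), and 0.89, 0.87 and 0.86 within the slides. With normexp background correction, Adipoq with Rbp4 and Retn had 0.90 and 0.90, but Adipoq with Cfd fell to 0.36 (rho 0.50, adjusted permutation p = 0.241 and 0.0591). Leaving out the noisy array TR 2, the r of Adipoq with Rbp4, Cfd and Retn was 0.90, 0.85 and 0.75 over 23 arrays and 0.91, 0.87 and 0.93 within slide 2.

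Group and slide means were then removed. Over the residuals of the fit, Adipoq had r = 0.82 with Retn, 0.79 with Rbp4, 0.73 with Cfd and 0.58 with Cidec (adjusted permutation p = 0.00015, 0.00015, 0.00081 and 0.0195). Permuting residuals takes no account of the 5 fitted terms, so these p-values are somewhat too small. Cfd with Rbp4 had r = 0.68 over the arrays, 0.47, 0.81 and 0.40 within the slides and 0.27 over the residuals, and Cfd with Retn had 0.59, then 0.59, 0.89 and 0.42, and 0.48 over the residuals (adjusted permutation p = 0.0937). On slide 3, TR 5 was the highest array for Retn (-0.37) but only the sixth of 8 for Cfd (0.90). Cidec with Pck1 had r = 0.73 over the residuals (adjusted permutation p = 0.00081), and 0.77, 0.79 and 0.89 within the slides. The Spearman rho within the slides was 0.38, 0.62 and 0.98. Both genes were not well above background on 11 or more arrays, and Cidec was well above background on no array of slide 3. In all, 17 of 45 pairs passed over the arrays, 14 of them positive, and 8 over the residuals, all positive. The permutations over the arrays took no account of slide, and the share among pairs of other features was not computed. With Adipoq, 4 of the other 9 genes had r over 0.5 over the residuals, against 1.03% of all features.

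The relations of Fabp4, Aqp7, Plin1 and Car3 to Adipoq were weaker or changed between slides or scalings. Fabp4 had r = 0.53 with Adipoq over all arrays (adjusted permutation p = 0.0246), but -0.08, 0.65 and -0.68 within slides 1, 2 and 3 and -0.06 over the residuals, so that the pooled value did not hold within slides. Its negative pooled values with Plin1 (-0.64) and Pck1 (-0.61) were -0.34 and 0.04 over the residuals; Plin1 was not well above background on any array of the dim slide. Aqp7 had r = 0.09 with Adipoq over the arrays and -0.15 over the residuals, and passed with none of the other 9 genes in either. Plin1 had -0.15 and 0.25 with Adipoq, and over the arrays it turned to 0.49 with quantile normalization and 0.47 in the deposited table (adjusted permutation p = 0.0349 and 0.0475). For Car3 the values with the other 9 genes ran from -0.53 to 0.20 over the arrays, and from -0.07 to 0.19 over the residuals. The only pair of Car3 that passed was with Cfd (r = -0.53, rho = -0.60, adjusted permutation p = 0.0246 and 0.0126), at -0.14, -0.39 and -0.58 within the slides and -0.07 over the residuals.

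**Figure D2:**
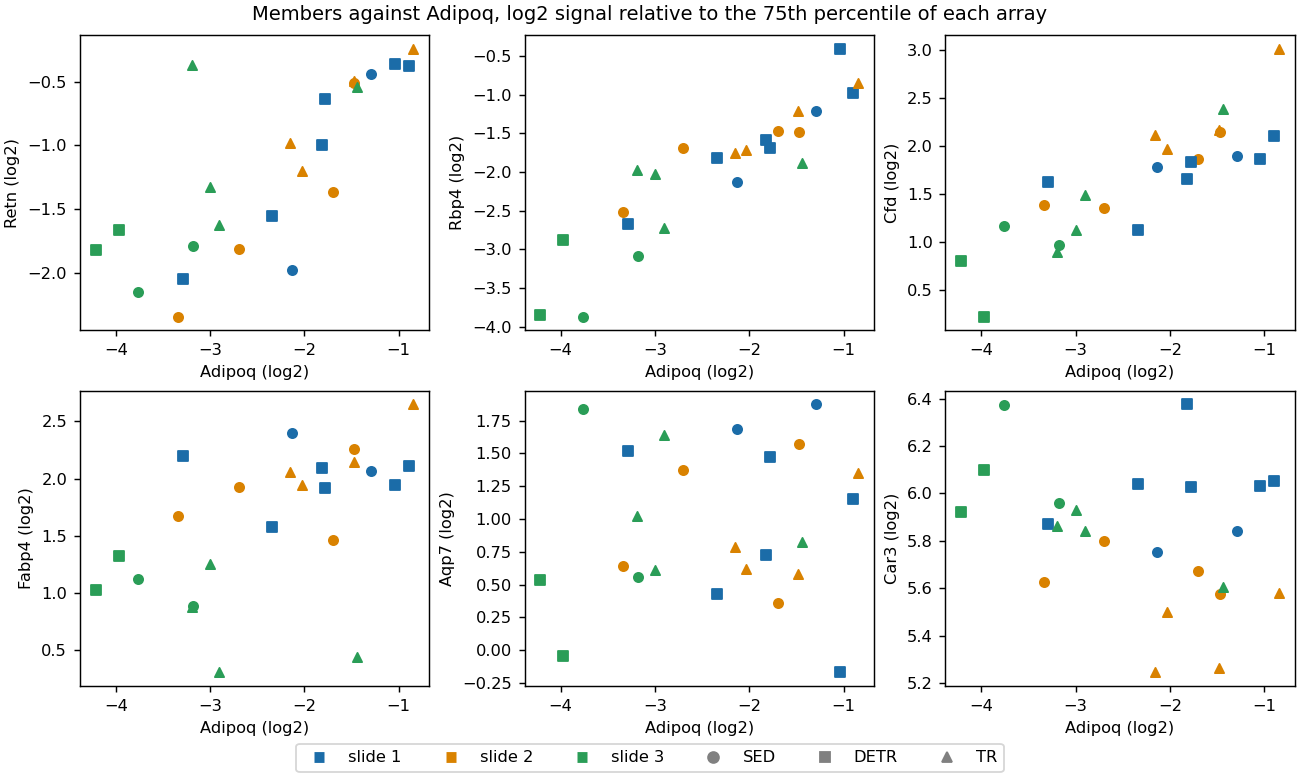
Log2 level of Retn, Rbp4, Cfd, Fabp4, Aqp7 and Car3 (vertical axes) against that of Adipoq (horizontal axes), with 1 point per array, coloured by slide and shaped by group. Retn, Rbp4 and Cfd climb with Adipoq in each colour, whereas Fabp4 separates by slide and Aqp7 (r = 0.09) and Car3 (r = -0.31) do not climb with it.

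**Figure D3:**
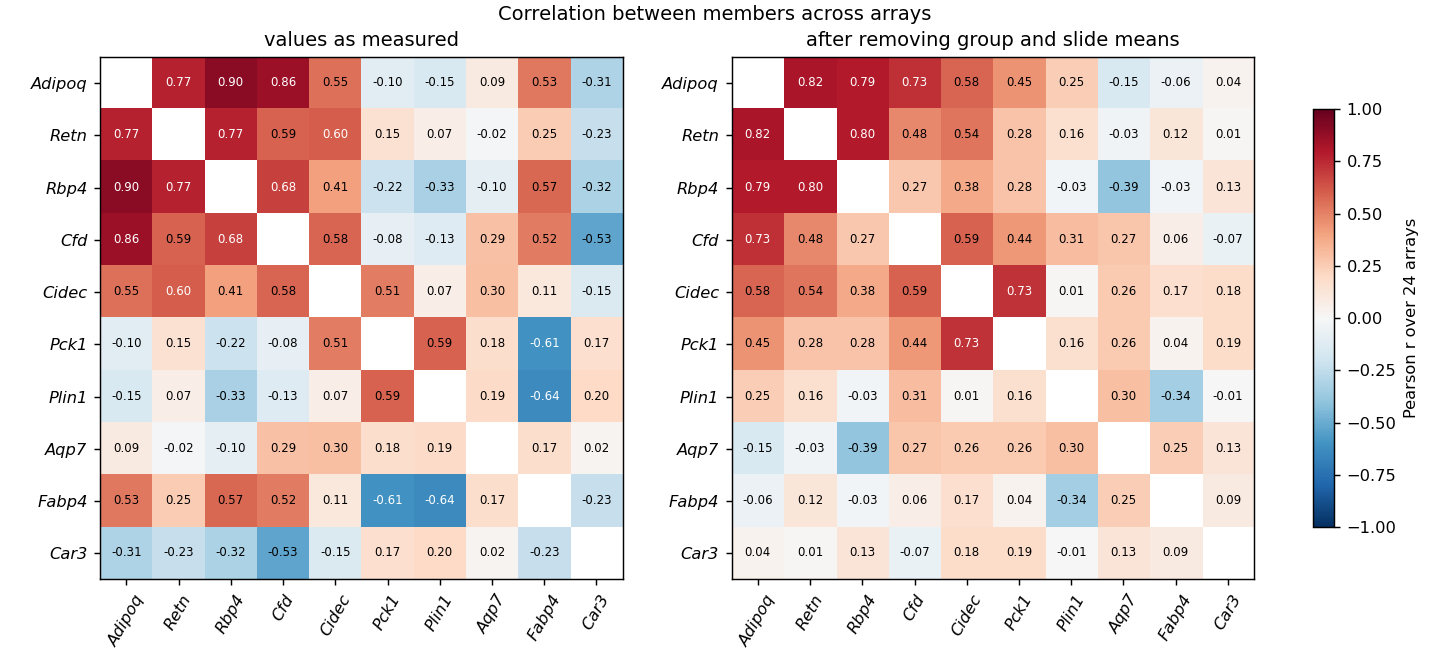
Pearson correlation over 24 arrays between each pair of the 10 genes, from the measured values (left) and from the residuals after group and slide were fitted (right); red is positive and blue negative. On the right, Adipoq has 0.82, 0.79 and 0.73 with Retn, Rbp4 and Cfd, Rbp4 has 0.27 with Cfd, and the values of Car3 run from -0.07 to 0.19.

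Adipoq was then set against every other feature by the same residual correlations, so the order among the 10 genes is the one already given. Over the residuals of 24 arrays, and out of 20326 other features, Retn ranked 2, Rbp4 ranked 3, Cfd ranked 7 and Cidec ranked 41 by Pearson correlation with Adipoq, as a description. Pck1 ranked 394, Plin1 4348, Car3 10633, Fabp4 13143 and Aqp7 15584. The 5 named genes outside the 10 that were most like Adipoq were Slc7a10, a neutral amino acid transporter (r = 0.85, ranked 1), Pthlh, the parathyroid hormone-like hormone (0.77), Gdf10, a growth factor of the TGF beta family (0.76), Ces1d, a carboxylesterase that hydrolyses triglyceride (0.75), and C4a, a complement component (0.72). Slc7a10 had r = 0.92, 0.95 and 0.85 with Adipoq within slides 1, 2 and 3. Slide means were removed by the fit, but the genes of an array share its labelling and scaling, which these values do not separate.

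Genes from a list of other adipocyte markers were divided. Of 13 listed, 9 passed the filter: Lep, Cebpa and Pde3b were well above background on 5, 3 and 6 arrays, and Plin4 was not analysed here. Acvr1c, an activin receptor of fat cells, had r = 0.67 with Adipoq over the residuals (ranked 12), Sncg, gamma-synuclein, 0.56 (ranked 58), and Adrb3, the beta-3 adrenergic receptor, 0.51 (ranked 170). Pparg, the nuclear receptor that drives adipocyte formation, had -0.15, the lipase Lipe had -0.06 and Cidea had -0.41. The median of the 9 was 0.02, against 0.05 over all features, and 3 of 9 were over 0.5, against 1.03% of all features. Genes of fatty acid synthesis, both enzymes and regulators, had a median of 0.29, with Fasn, fatty acid synthase, at 0.56. Genes of triglyceride storage and lipolysis that muscle also uses had -0.14, with 0 of 17 over 0.5.

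Markers of other cells that a muscle piece holds varied with Adipoq to differing degrees. The list medians were 0.38 for red blood cells (5 features), 0.30 for Schwann cells (7), 0.27 for endothelium (11), 0.16 for macrophages (9), 0.07 for fibroblasts and adipogenic progenitors (11) and -0.03 for tendon (8). S100b, which both Schwann cells and adipocytes make, had 0.71 and ranked 9. Of brown adipocyte genes, Ucp1, Dio2 and Zic1 were well above background on 3, 1 and 0 arrays, and 1 of the 5 listed, Elovl3, passed the filter. The part of these cells in the levels of the 10 genes was not tested.

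Car3 was measured against muscle markers in the same way. Its residual correlation had a median of 0.23 with 10 slow fibre genes, 0.23 with 5 red blood cell features, 0.19 with 8 other carbonic anhydrases, 0.05 with 12 fast fibre genes and 0.04 with the 9 adipocyte markers, against 0.08 over all features. The 5 named genes most like Car3 over the residuals were Or10d4c (r = 0.73) and Or8b46 (0.70), both of the olfactory receptor family, LOC102549986 (0.68), Cd3d, a chain of the T cell receptor complex (0.67), and Serpine2, a protease inhibitor (0.67). Cd3d and LOC102549986 had 0.24 and 0.07 with Car3 within slide 3. Cd3d had 0.34 within slide 2 and a Spearman rho of 0.47 over the residuals. LOC102549986 was well above background on only 8 of the 24 arrays.

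**Figure D4:**
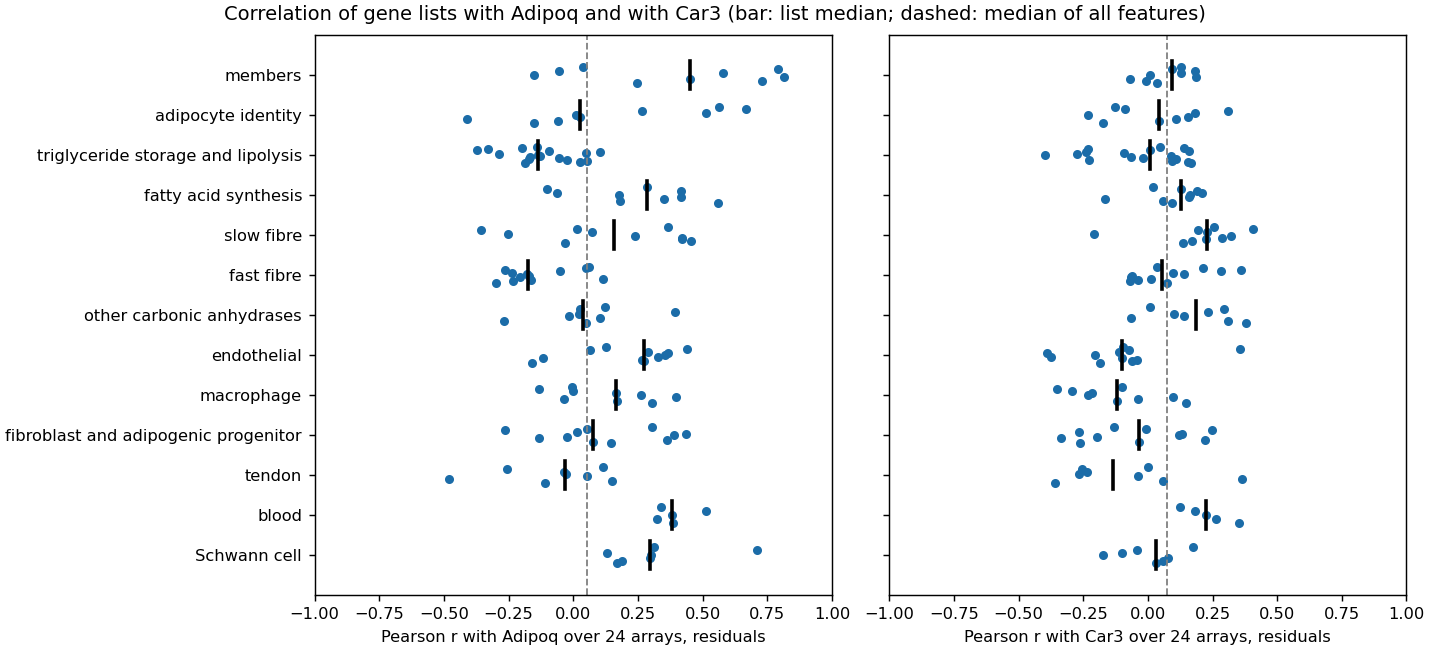
Pearson correlation over the residuals of 24 arrays between genes of each list (1 point per gene, bar at the list median) and Adipoq (left) or Car3 (right); the dashed line is the median of all features (0.05 and 0.08). Among the other genes of the 10, Retn, Rbp4, Cfd and Cidec lie over 0.5 with Adipoq, and none lies over 0.19 with Car3.

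In detrained against sedentary muscle, the glycerol channel Aqp7 differed the most of these genes in units of its error. Aqp7 was lower in DETR by the model with slide as a term, with a log2 difference of -0.93 ± 0.30 (SE, 8 rats per group), and by -0.93 within slide 1 and -0.95 within slide 3. It did not pass limma's moderated test after Benjamini-Hochberg adjustment over all features (adjusted p = 1.00). Without the slide term the difference was -0.53. None of the 10 genes passed, and neither did any other feature (0% of 20327 at adjusted p under 0.05). At an unadjusted p under 0.05, 1 of the 10 was lower and 0 higher, where 3.94% of all features passed, 3.04% higher and 0.905% lower.

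The genes of secreted proteins differed between DETR and SED by -0.39 ± 0.41 for Adipoq, -0.29 ± 0.24 for Cfd, -0.04 ± 0.34 for Rbp4 and 0.18 ± 0.35 for Retn. Lipid droplet and storage genes differed by -0.10 ± 0.27 (Plin1), -0.33 ± 0.41 (Cidec), 0.06 ± 0.20 (Fabp4) and -0.86 ± 0.58 (Pck1), and Car3 by 0.09 ± 0.11. All of these were within 2 SE of 0. For Pck1 the value moved from -1.45 without DETR 8 to -0.22 without DETR 7, and it was 0.03 without the slide term. For Car3 it was 0.27 within slide 1 and -0.16 within slide 3. The median over the 10 genes was -0.19, with 3 higher and 7 lower, against 0.03 over all features.

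In trained against sedentary muscle, Retn, Rbp4, Adipoq and Cfd, which encode secreted proteins, were higher in the model. The differences were of 2 to 3 SE and did not pass after adjustment. Retn differed by 0.88 ± 0.30 (adjusted p = 0.354 by limma with Benjamini-Hochberg over all features), Rbp4 by 0.83 ± 0.29 (0.374), Adipoq by 0.81 ± 0.36 (0.445) and Cfd by 0.58 ± 0.21 (0.375). Pck1 differed by 1.37 ± 0.50 (0.392). Car3 went the other way, by -0.25 ± 0.10 (0.407). None of the 10 passed, and 0% of all features did. At an unadjusted p under 0.05, 5 of the 10 were higher and 1 lower, where 10.4% of all features passed, 6.32% higher and 4.11% lower. Retn, Rbp4 and Cfd varied with Adipoq between arrays, so these genes are not separate observations, and the counts were not tested.

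Both slides that held TR and SED arrays gave the same sign for these 6 genes. Within slides 2 and 3 the differences were 0.78 and 1.01 for Retn, 0.41 and 1.32 for Rbp4, 0.67 and 0.84 for Adipoq, 0.63 and 0.40 for Cfd, 1.27 and 1.42 for Pck1 and -0.27 and -0.36 for Car3. The plain difference of group means, without the slide term, was smaller for the genes of secreted proteins: 0.70 for Retn, 0.41 for Rbp4, 0.32 for Adipoq and 0.32 for Cfd. Of the TR arrays, 4 of 8 were on the dim slide 3, against 2 of 8 SED arrays. On that slide Adipoq was not well above background on SED 8, TR 5 and TR 7. Its signals before scaling were 37.4 in SED 7 and 18.7 in SED 8. In TR 5, TR 6, TR 7 and TR 8 they were 14.5, 38.3, 12.8 and 45.9. The 75th percentiles were 339 and 254 in these SED arrays, and 133, 307, 95.5 and 124 in these TR arrays. The part of the scaling in the slide 3 differences was not tested. Without the noisy array TR 2 the model gave 0.81 for Retn, 0.77 for Rbp4, 0.69 for Adipoq, 0.46 for Cfd and 1.14 for Pck1. With normexp background correction the differences were 0.58 for Pck1, 0.33 for Cfd, 0.62 for Adipoq, 0.56 for Rbp4 and 0.75 for Retn. Pck1 was not well above background on 11 of 24 arrays.

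The other 4 genes differed by 0.66 ± 0.36 (Cidec), 0.24 ± 0.23 (Plin1), 0.01 ± 0.17 (Fabp4) and -0.16 ± 0.26 (Aqp7). Plin1 and Fabp4 differed in sign between slides 2 and 3, with -0.05 and 0.53 for Plin1 and 0.37 and -0.28 for Fabp4. Over the 10 genes the median was 0.62, with 8 higher and 2 lower, against 0.01 over all features. The median over the 9 other adipocyte markers was -0.05, with 1 higher and 8 lower; Acvr1c, Pparg and Trarg1 had the smallest p among them, at 0.15 ± 0.18, -0.11 ± 0.17 and -0.14 ± 0.22. The difference between the lists was not tested.

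Markers of other cells were measured beside these differences. Between TR and SED, 7 of 9 macrophage genes were higher and 2 lower (median 0.33), with Mrc1 at 0.75 ± 0.22 and Ctss at 0.54 ± 0.19, and 0 of 9 passed. Endothelial genes had a median of 0.06 (8 of 11 higher), fibroblast and adipogenic progenitor genes -0.05 (5 of 11 higher), Schwann cell genes 0.24 (5 of 7 higher), and tendon genes -1.06 (0 of 8 higher). The mean level of the macrophage genes ran from -0.69 to -0.34 in SED, from -1.22 to -0.21 in DETR and from -1.03 to 0.21 in TR. Fast fibre genes had a median of -0.78, with 10 of 12 lower, and slow fibre genes 0.18, with 6 of 10 higher. The 3 fast fibre genes with the smallest p did not share a sign. Myl1 differed by 0.41 ± 0.08, Casq1 by 0.25 ± 0.09 and Mybpc2 by -2.42 ± 0.94. Of the other carbonic anhydrases, 4 of 8 were higher and 4 lower, with Car2 at -0.43 ± 0.14. None of these genes passed after adjustment, and their part in the differences of the 10 genes was not tested.

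In trained against detrained muscle, the model gave higher levels of Adipoq, Retn, Cfd, Rbp4, Pck1, Cidec and Aqp7. It gave a lower level of Car3, and none passed. These groups shared only slide 3, with 4 TR and 2 DETR arrays. These values share the TR arrays with the comparison above and the DETR arrays with the one before it. Pck1 differed by 2.23 ± 0.64 (adjusted p = 0.333 by limma with Benjamini-Hochberg), Adipoq by 1.20 ± 0.46 (0.445), Cidec by 1.00 ± 0.46 (0.496), Cfd by 0.87 ± 0.27 (0.358), Rbp4 by 0.86 ± 0.38 (0.483), Aqp7 by 0.78 ± 0.33 (0.479) and Retn by 0.70 ± 0.39 (0.530). Car3 differed by -0.34 ± 0.12 (0.424). None of the 10 passed, and 0% of all features did. At an unadjusted p under 0.05, 6 of the 10 were higher and 1 lower, where 9.92% of all features passed, 4.2% higher and 5.72% lower. Here too, genes that varied with Adipoq between arrays are not separate observations, and the counts were not tested.

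Within slide 3 the TR and DETR means differed by 2.36 for Pck1, 1.46 for Adipoq, 0.96 for Cfd, 1.21 for Rbp4, 0.78 for Aqp7, 0.78 for Retn and -0.20 for Car3. Without the slide term they differed by 1.61, 0.29, 0.49, 0.22, 0.23, 0.33 and -0.45 in the same order. The value for Pck1 ran from 1.39 without DETR 7 to 2.99 without DETR 8. With normexp background correction the differences were 0.69 for Pck1, 0.48 for Cidec, 0.75 for Adipoq and 0.52 for Rbp4. Plin1 differed by 0.34 ± 0.30 and Fabp4 by -0.04 ± 0.23. The median over the 10 genes was 0.82, with 8 higher and 2 lower, against -0.03 over all features, and the median over the 9 other adipocyte markers was 0.02.

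**Figure D5:**
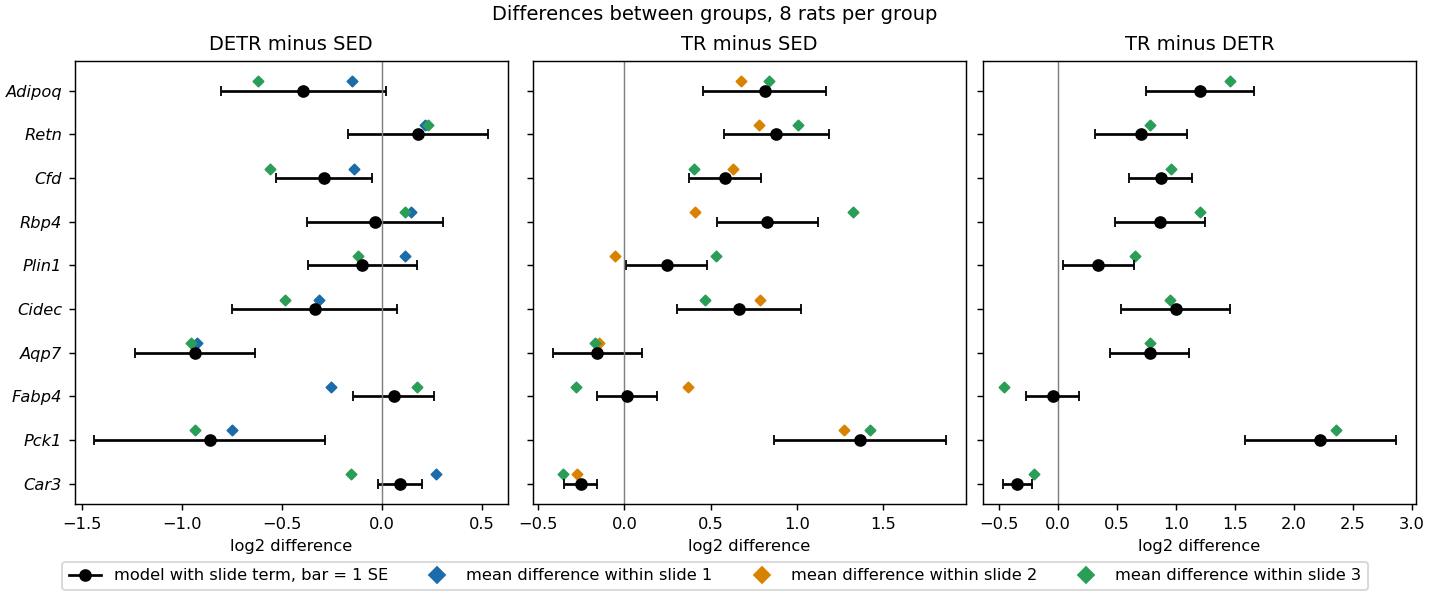
Log2 differences of the 10 genes in the 3 comparisons (horizontal axes) from the model with slide as a term, with bars of 1 SE, and, as diamonds, the plain difference of means within each slide that held both groups. Adipoq, Retn, Cfd, Rbp4 and Pck1 lie above 0 in TR minus SED on both slides, Car3 lies below 0 there, and Aqp7 lies at -0.93 in DETR minus SED.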

How the data were processed

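Spot intensity was extracted and background-subtracted by Agilent Feature Extraction, per the file headers (version 11.5.1.1, or 11.5.11.1 in the submitters' processing notes). A log2 table deposited by the authors, with a median of 6.26 per array and read as quantile normalized, served as an alternative; no source used here names the tool behind it.

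Control spots were left out, and log2 processed signals were taken relative to the 75th percentile of their array. Spots of a probe were averaged, and a gene took its probe with the highest mean. Features well above background on 8 or more arrays were kept. Group and slide, read from the array identifiers, were the terms of a fit over all arrays (limma 3.58.1 in R 4.3.3), with Benjamini-Hochberg adjustment over all features and a threshold of 0.05. Correlations used 100000 permutations, or every order of the arrays for sets of 8 or 7 (numpy 2.4.6). The fit was tested on simulated data. Precision is limited by how many arrays there are. The p-values measure the spread between rats, given as 8 per group in the design text.

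The 10 genes and the lists were chosen with earlier results of these data known. The text names all 10, up to 3 genes of a list with the smallest p in a comparison, and the 5 named genes most like Adipoq and Car3. S100b, Fasn, Sncg, Adrb3, Pparg, Lipe, Cidea and the genes under the filter were named with their correlations or detection after those were seen. Alternatives were quantile normalization, normexp (offset 50), the deposited table, other filters, slide handled in other ways, a replicate block, fewer groups, array weights and each array left out. Fits without slide 3 and correlations without slide 3 or TR 2 were added after the data were seen.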

Additional observations from a re-analysis of the deposited data

Results flagged for a closer look

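In 30 sets of 8 arrays (10 genes in 3 groups), 2 arrays stood apart from their own group by the gap between an extreme array and its neighbour, relative to the group's range; chance alone gives about 1 such set in 20. Pck1 in DETR 8 was at -3.18, against -5.34 for the next DETR array, DETR 2. Before scaling, the Pck1 signals of these 2 arrays were close, at 20.5 in DETR 8 and 20.2 in DETR 2. Their 75th percentiles were 186 and 817. Car3 in DETR 1 was at 6.38, against 6.10 for the next.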

How the results depend on the processing

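No gene of the 10 passed in any comparison under any alternative, with a smallest adjusted p of 0.0684 (Pck1, TR minus DETR, replicate block). The count of features past the threshold was 0 in each comparison, and with array weights 15 (DETR minus SED), 107 (TR minus SED) and 2 (TR minus DETR). For TR minus SED it was 2 with normexp, 1 with the deposited table, 1 without slide 3 and 0 to 3 with 1 array left out. For TR minus DETR it was 1 with only those groups fitted and 0 to 14 with 1 array left out (14 without TR 6). The replicate block with slide gave 0, 4 and 35 features; same-numbered arrays did not pair, since 20 of 24 pairs correlated over 0.1 but the mean over residuals was -0.04. The median of the 10 genes moved to 0.014 (TR minus SED, only 5 genes, filter on all 24 arrays) and 0.26 (TR minus DETR, no slide term). With the replicate block it was -0.23, 0.67 and 0.67, and with 1 array left out -0.30 to -0.14, 0.50 to 0.72 and 0.70 to 0.93. Single genes changed sign in 22 of 125, 11 of 125 and 3 of 115 values (DETR minus SED, TR minus SED, TR minus DETR), and in 6, 5 and 3 of 240 with 1 array left out.

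Pairs of genes past the threshold were 17 of 45 over the arrays, 8 over residuals and 9 without the 2 farthest arrays. Within slides 1, 2 and 3 they were 3, 11 and 1 (6 in slide 2 without TR 2). Within SED, DETR and TR they were 0, 1 and 3. Sets of 8 arrays have less power by construction. The share among pairs of other features was not computed. Adipoq with Fabp4 turned to -0.091 with normexp, -0.056 over residuals, -0.082 within slide 1 and -0.68 within slide 3. Adipoq with Plin1 turned to 0.49 with quantile normalization and 0.47 with the deposited table, and Adipoq with Pck1 to 0.60 without slide 3; the cause was not tested. Each gene had 1 probe, so the alternative of taking every probe could not apply. Dim signals of Plin1, Cidec and Pck1 limit what can be said of them.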
